A study of Homo sapiens with 12 samples.

Results

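The carcinoembryonic antigen-related cell adhesion molecules (CEACAM) are glycoproteins of the immunoglobulin superfamily that sit on the cell surface and bind each other, or themselves, between neighbouring cells. CEACAM1, CEACAM5, CEACAM6, CEACAM7 and CEACAM19 were followed here, 5 of the 26334 genes in the count files. They were listed by symbol and were chosen by the measured effect of RNF113A depletion on their counts, which was known from these libraries, so their values upon depletion are given as a description and were not tested. The genes were measured in A549 cells, an established human lung adenocarcinoma line, with 3 RNA sequencing libraries for each of 4 conditions.

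All cells were infected with a lentivirus and selected with puromycin for 4 days. Control cells carried a non-target shRNA (shControl) and depleted cells carried an shRNA against RNF113A (shRNF113A), a spliceosome subunit with E3 ligase activity. Cells of either kind were left untreated or received Cisplatin, a platinum drug that crosslinks DNA, at 25 µg/ml for 20 h as the sample labels state it. Doses of other Cisplatin treatments in the study are given in µM, and which unit applied here could not be settled. The labels name 1 shRNA against RNF113A, and the comparison of shRNF113A with shControl is therefore that of 1 construct with another. They do not say whether replicates were separate cultures, and p-values measure only the spread between these libraries. In bulk RNA, fewer cells that express a gene and less RNA per cell cannot be told apart.

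CEACAM1 spans the membrane and, in its long form, carries tyrosine-based inhibitory motifs in its cytoplasmic tail that recruit the phosphatases SHP-1 and SHP-2. CEACAM5 is the carcinoembryonic antigen itself, a tumour marker measured in serum. CEACAM5, CEACAM6 and CEACAM7 are held in the membrane by a glycosylphosphatidylinositol (GPI) anchor, and CEACAM5 and CEACAM6 are often overproduced in epithelial tumours. CEACAM7 is known from normal colon epithelium, and CEACAM19 is a less studied member that spans the membrane.

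The 5 genes lie on chromosome 19 in hg19. CEACAM7 (ENSG00000007306.10, minus strand, chr19:42177235-42210895), CEACAM5 (ENSG00000105388.10, plus strand, chr19:42212504-42233718) and CEACAM6 (ENSG00000086548.8, plus strand, chr19:42254885-42276113) are neighbours. CEACAM1 (ENSG00000079385.17, minus strand) occupies chr19:43011456-43065386, and CEACAM19 (ENSG00000186567.8, plus strand) occupies chr19:45165545-45187631. The 60 bases before the transcription start, taken from the RefSeq promoter table (GRCh38.p14), show how alike the neighbouring genes are where CEACAM5 and CEACAM6 were higher upon depletion and CEACAM7 was not. They are printed on the strand of the gene, and capitals mark the E-box CACGTG, which reads the same on both strands.

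CEACAM5 (chr19:41708566-41708625, plus strand): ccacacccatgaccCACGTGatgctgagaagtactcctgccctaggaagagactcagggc

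CEACAM6 (chr19:41755470-41755529, plus strand): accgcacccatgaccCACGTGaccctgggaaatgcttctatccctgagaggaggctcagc

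CEACAM7 (chr19:41688271-41688330, minus strand): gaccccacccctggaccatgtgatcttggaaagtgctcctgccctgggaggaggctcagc

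CEACAM1 (chr19:42528482-42528541, minus strand): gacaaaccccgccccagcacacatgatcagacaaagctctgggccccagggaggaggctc

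CACGTG begins at −46 from the transcription start in CEACAM5 and at −45 in CEACAM6. It is not in the promoter window of CEACAM1 or CEACAM7, which runs from 250 bases before to 50 bases after the start. Only this form of the E-box was searched. The printed bases of CEACAM7 and CEACAM1 hold catgtg and cacatg, which each differ from it in a single base. Of 35116 promoter windows in the table, 7.26% hold CACGTG, and 6.34% hold it upstream of the start. The GC box GGGCGG, searched on both strands, begins at −52 in CEACAM1 and at −211 in CEACAM6, and is not in the windows of CEACAM5 and CEACAM7. It occurs in 45.0% of all promoter windows. Aligned over the 250 bases before the start, CEACAM5 and CEACAM7 shared 80.5% of their columns, CEACAM6 and CEACAM7 79.9%, and CEACAM5 and CEACAM6 74.6%. CEACAM1 shared between 65.1% and 71.3% with CEACAM5, CEACAM6 and CEACAM7. A match of letters is a description and not a binding site, and whether it bears on the depletion values was not tested. CEACAM19 was not matched in the promoter table.

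The libraries held 33859097 to 56071514 read pairs, of which 26220526 to 45721152 were counted on the strand of a gene. RNF113A, the targeted gene, had normalised counts of 743, 707 and 725 in untreated control cells and 555, 572 and 612 in untreated depleted cells. Under Cisplatin the counts were 1144, 1047 and 997 in control cells and 908, 855 and 1047 in depleted cells, and these last groups overlapped. Upon depletion RNF113A moved by −0.23 on the log2 scale (standard error 0.07), so its mRNA was lower by a small margin only. RNF113A protein, which the paper followed by western blot in depleted A549 cells, is not measured by these counts. The epithelial keratins KRT8 and KRT18 had at least 80477 and 53872 counts in every library. Of the leukocyte markers, cells in which CEACAM1 and CEACAM6 are also expressed, PTPRC had 0 to 5 counts, CD3E 0 to 1 and MPO 0, while ITGAM had 42 to 794 and rose with Cisplatin (log2 fold change 2.5, adjusted p = 2.04e-09). The normalised counts of ITGAM were 82.6 ± 10.5 and 490 ± 103 (SD, n = 3) in untreated and treated control cells, and 46.9 ± 6.01 and 241 ± 12.7 (SD, n = 3) in depleted cells, and the part of this in the rise of CEACAM1 was not tested. The 3 endothelial markers reached 18 counts at most. Of the fibroblast markers, DCN had 0 to 1 counts, LUM 6 to 89 and COL1A1 108 to 1368. Of 5 epithelial markers, CDH1, KRT18 and KRT8 fell with Cisplatin (log2 fold changes −1.56, −1.51 and −1.12), and EPCAM (3.16) and KRT19 (1.5) were over 2-fold higher upon depletion, while KRT8 (0.33), KRT18 (0.30) and CDH1 (−0.44) were less than 2-fold apart. Their summed normalised counts were 260522 to 474067 in untreated control and 466317 to 510161 in untreated depleted cells, and with Cisplatin 123254 to 187312 and 185802 to 201376. Of 3 genes that mark A549 cells, NQO1 had at least 33541 counts, and AKR1C1 and AKR1B10 were lower upon depletion (−1.62 and −1.56). The part of these differences in those of the CEACAM genes was not tested.

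Replicate 2 of the control cells stood apart. Of 15352 genes that passed the filter on low counts, 1002 lay at least 2-fold from both other libraries of their condition in untreated control replicate 2, and 708 did so in Cisplatin-treated control replicate 2. The other 10 libraries had 40 to 161 such genes. CEACAM1 and CEACAM7 were among them in untreated control replicate 2, and CEACAM7 again in the treated one. CEACAM5 was among them in untreated control replicate 3, and CEACAM7 in Cisplatin-treated depleted replicate 3. Results that rest on control replicate 2 are given with and without it, an alternative chosen after the data were seen. All 5 genes passed the filter on low counts.

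Levels were compared between the genes per length, as exonic reads per kb of exon and megaread of exonic reads. CEACAM6 was the highest of the 5 genes in every condition. Its level was 92.7 ± 20.2 (SD, n = 3) in untreated control cells, where it ranked 599 of 19459 genes. The level was 838 ± 88.9 (SD, n = 3) in untreated depleted cells, where it ranked 45, and the gene took up to 0.285% of all gene reads there. CEACAM5 had a level of 3.96 ± 2.72 (SD, n = 3) in untreated control cells, which overlapped that of CEACAM19, 1.97 ± 0.0261 (SD, n = 3). In untreated depleted cells CEACAM5 was second with 83.1 ± 17.6 (SD, n = 3), apart from its neighbours in the order. In untreated control cells CEACAM1 was below CEACAM19, with 0.902 ± 0.833 (SD, n = 3), and overlapped CEACAM7 there. With Cisplatin it was second in control cells, with 20.0 ± 0.774 (SD, n = 3), above every library of CEACAM19. In Cisplatin-treated depleted cells it followed CEACAM5, and its 24.2 ± 3.67 (SD, n = 3) overlapped the 36.5 ± 9.14 (SD, n = 3) of that gene. CEACAM7 was last in all 4 conditions, between 0.0645 and 0.410.

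CEACAM1 rose with Cisplatin in every library of control and depleted cells. Its normalised counts (counts divided by the size factor of the library) were 73, 255 and 55.2 in untreated control cells, where replicate 2 was the high one. They were 2831, 2494 and 2762 in Cisplatin-treated control cells. Untreated depleted cells had 371, 382 and 419, and depleted cells with Cisplatin 2738, 3073 and 3727. Untreated and treated libraries did not overlap in either kind of cell. The Cisplatin log2 fold change of CEACAM1 was 3.70 (standard error 0.34, adjusted p = 4.42e-07) over all libraries, the 127th highest of 15352 genes. Within control cells it was 4.40 (standard error 0.41, adjusted p = 2.62e-06), and within depleted cells 3.07 (standard error 0.38, adjusted p = 2.15e-05). Without untreated control replicate 2 the value in control cells was 5.41 (standard error 0.18, adjusted p = 7.79e-10), and without both control replicate 2 libraries 5.47 (standard error 0.16).

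**Figure D1:**
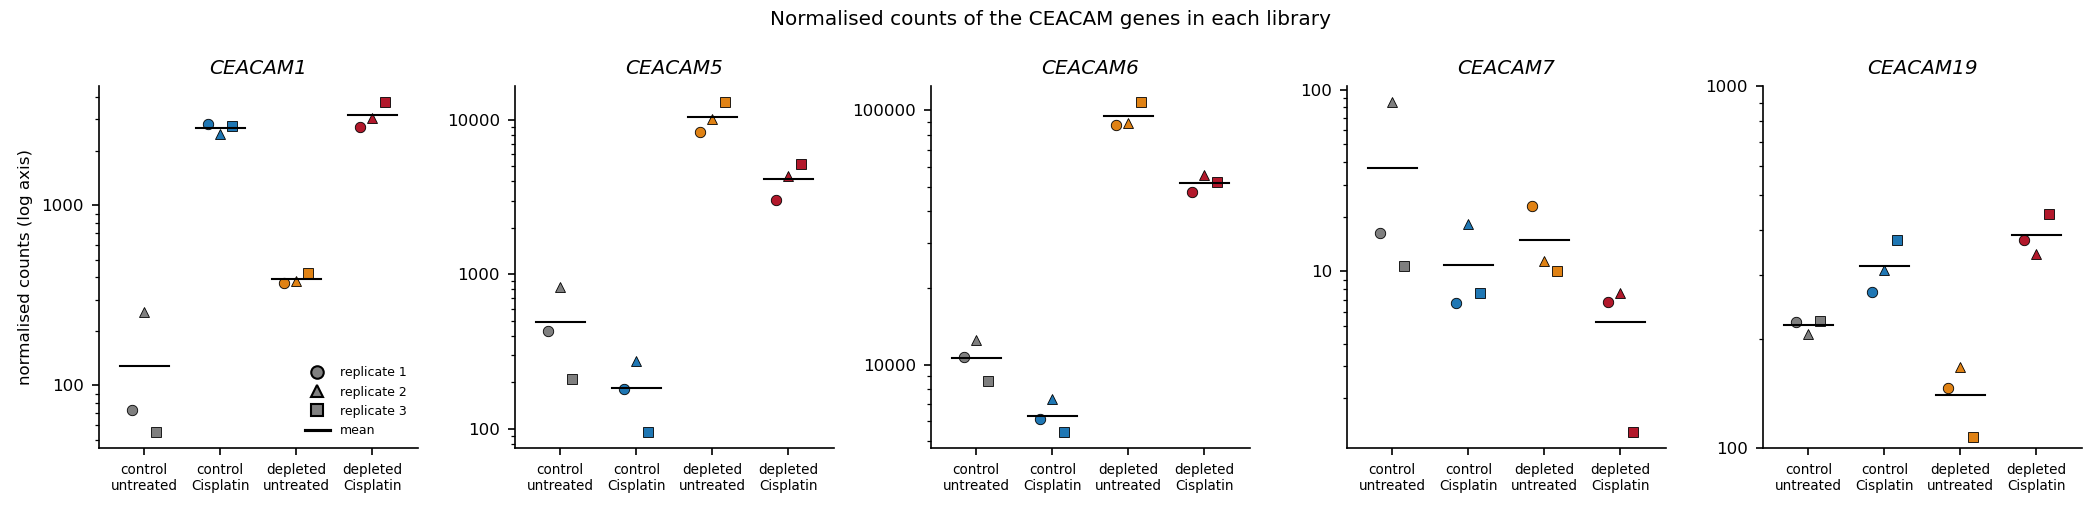
Normalised counts of the 5 CEACAM genes in each of 12 libraries, on a log axis in a panel per gene, with symbols for replicates 1 to 3 and a line at the arithmetic mean of each condition. CEACAM1 lies between 55.2 and 419 without Cisplatin and between 2494 and 3727 with it, while CEACAM5 and CEACAM6 are higher in all depleted than in all control libraries.

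CEACAM5 fell with Cisplatin. Its normalised counts were 431, 825 and 210 in untreated control cells and 180, 276 and 95.6 in Cisplatin-treated ones, and these groups overlapped. In depleted cells they were 8318, 10196 and 12949 without Cisplatin and 3024, 4310 and 5179 with it, with no overlap. Over all libraries Cisplatin moved CEACAM5 by −1.34 on the log2 scale (standard error 0.29, adjusted p = 0.0011). It was −1.41 (standard error 0.45, adjusted p = 0.0192) in control cells and −1.28 (standard error 0.41, adjusted p = 0.0163) in depleted cells. The call within control cells was lost without untreated control replicate 2 (log2 fold change −0.79, adjusted p = 0.107), and also without replicate 1 (adjusted p = 0.0525) or replicate 3 (adjusted p = 0.0799) of the Cisplatin-treated control cells. It held without both control replicate 2 libraries (−1.22, adjusted p = 0.00904). CEACAM5 was lower with Cisplatin in all 3 same-numbered pairs of control libraries, and the replicate block within each shRNA gave −1.35 (standard error 0.10, adjusted p = 1.57e-08) there. The labels name no pairs, and these were formed on correlations of the counts alone. The call within depleted cells was lost without untreated replicate 3 (adjusted p = 0.061) or Cisplatin-treated replicate 1 (adjusted p = 0.0632).

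CEACAM6 was lower with Cisplatin in every library, by less than 2-fold. It had 10754, 12492 and 8674 normalised counts in untreated control cells and 6110, 7323 and 5455 in Cisplatin-treated ones. Depleted cells had 87410, 88844 and 107178 without Cisplatin, and 47739, 55831 and 52081 with it. Treated and untreated libraries did not overlap in either kind of cell. The Cisplatin log2 fold change of CEACAM6 was −0.78 (standard error 0.10, adjusted p = 1.01e-05), and it was −0.74 in control and −0.82 in depleted cells.

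CEACAM7 had few reads, from 1 to 92 raw counts per library. Its normalised counts in control cells were 16.2, 85.1 and 10.7 without Cisplatin and 6.68, 18.3 and 7.65 with it, and these groups overlapped. Depleted cells had 23.1, 11.4 and 10.1 without Cisplatin and 6.81, 7.60 and 1.31 with it. The Cisplatin log2 fold change of CEACAM7 was −1.63 (standard error 0.55, adjusted p = 0.0179) over all libraries. It was no longer called without untreated control replicate 2 (log2 fold change −0.81, adjusted p = 0.103). Within control cells CEACAM7 had a log2 fold change of −1.77 (adjusted p = 0.057), and within depleted cells −1.40 (adjusted p = 0.205). With the replicate block the value in control cells was −1.54 (adjusted p = 0.0344). It was also called with DESeq2 (adjusted p = 0.0483) and without untreated replicate 1 or 3 or Cisplatin-treated replicate 2 of the control cells (adjusted p 0.0176 to 0.0361). Without untreated control replicate 2 the value was −0.28 (adjusted p = 0.689), and without both control replicate 2 libraries −0.86 (adjusted p = 0.184). With the replicate block within each shRNA, CEACAM7 was called in control cells (−1.59, adjusted p = 0.0016), whose same-numbered libraries are paired on correlations of their counts alone.

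CEACAM19 had 223, 207 and 225 normalised counts in untreated control cells and 270, 311 and 375 in Cisplatin-treated ones. In depleted cells it had 147, 168 and 107 without Cisplatin and 376, 344 and 443 with it. Every treated library was above every untreated library of its kind of cell. CEACAM19 rose with Cisplatin over all libraries (log2 fold change 1.02, standard error 0.18, adjusted p = 0.000202) and in depleted cells (1.5, standard error 0.18, adjusted p = 1.64e-05). In control cells its rise of 0.56 (standard error 0.17, adjusted p = 0.0157) was under 2-fold. The value over all libraries lies at the limit of 2-fold, and it was under that limit with DESeq2 (1.00 on the log2 scale), with exonic counts (0.93) and without any one of 4 depleted libraries (0.90 to 0.98).

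Of the 5 genes, 4 were called for Cisplatin over all libraries by edgeR's quasi-likelihood test (adjusted p under 0.05 and at least 2-fold). CEACAM1 and CEACAM19 were higher and CEACAM5 and CEACAM7 lower. Among all genes tested, 21.5% were called, 10.3% higher and 11.2% lower. Since the genes were listed with results of these data known, nothing is read from the count. Within control cells 2 of the 5 genes were called (CEACAM1 and CEACAM5), beside 19.8% of all genes, and within depleted cells 3 were called (CEACAM1, CEACAM5 and CEACAM19), beside 23.1%. Without both control replicate 2 libraries 4 genes were called over all libraries, 2 in control and 4 in depleted cells, where CEACAM7 was then called at −1.40 (adjusted p = 0.02).

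**Figure D2:**
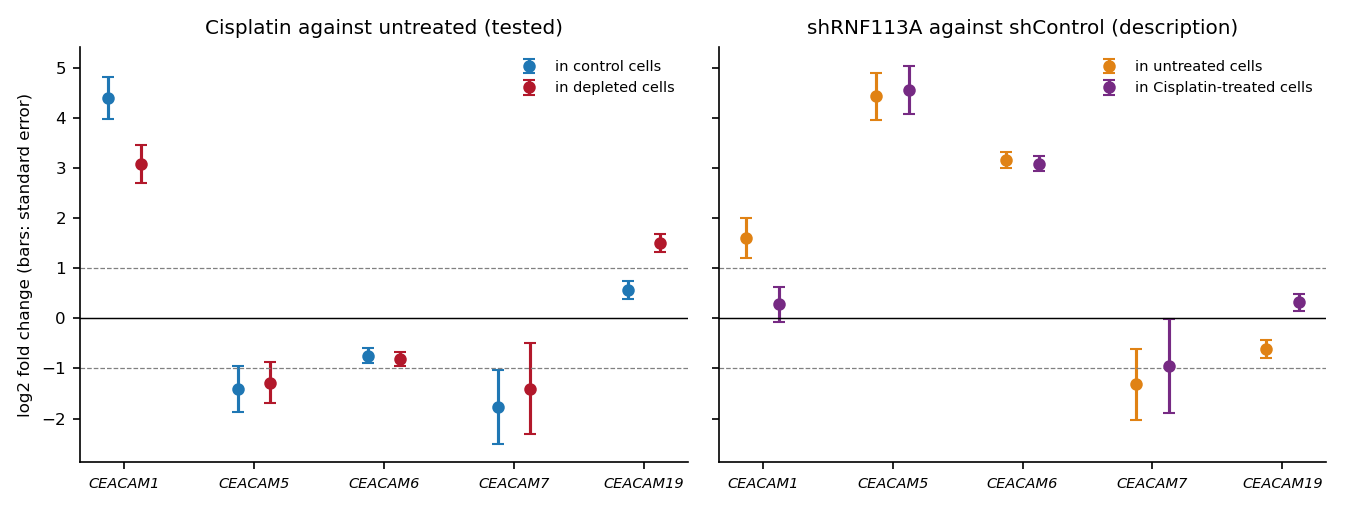
Log2 fold changes of the 5 CEACAM genes for Cisplatin against untreated cells (left) and for shRNF113A against shControl (right), with standard errors as bars and dashed lines at 2-fold. CEACAM1 had Cisplatin values of 4.40 and 3.07, and CEACAM5 had depletion values of 4.43 and 4.55.

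The study also asked whether depletion altered the response to Cisplatin, which the interaction of drug and depletion measures. The interaction is also the difference between the depletion effects with and without Cisplatin. Since depletion effects were known when the genes were listed, its p-values and calls are a description. None of the 5 genes was called by edgeR (0 of 5, beside 1.28% of all genes), while 3318 of all genes had an unadjusted p under 0.05. CEACAM1 had the interaction log2 fold change of largest size, −1.33 (standard error 0.52, adjusted p = 0.166). This value turned on untreated control replicate 2, whose 276 raw counts of CEACAM1 stood beside 72 and 57 in the other libraries of the condition. Without that library the interaction of CEACAM1 was −2.34 (standard error 0.20, adjusted p = 0.000333). Without both control replicate 2 libraries it was −2.40 (standard error 0.20, adjusted p = 8.94e-06), and CEACAM1 was then the only one of the 5 genes called. It was also called with a replicate block within each shRNA (−1.46, adjusted p = 0.0179), and not with DESeq2 (−1.37, adjusted p = 0.213). That block pairs same-numbered libraries, which the labels do not name as pairs. Over all alternatives the adjusted p lay between 8.94e-06 and 0.274.

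**Figure D3:**
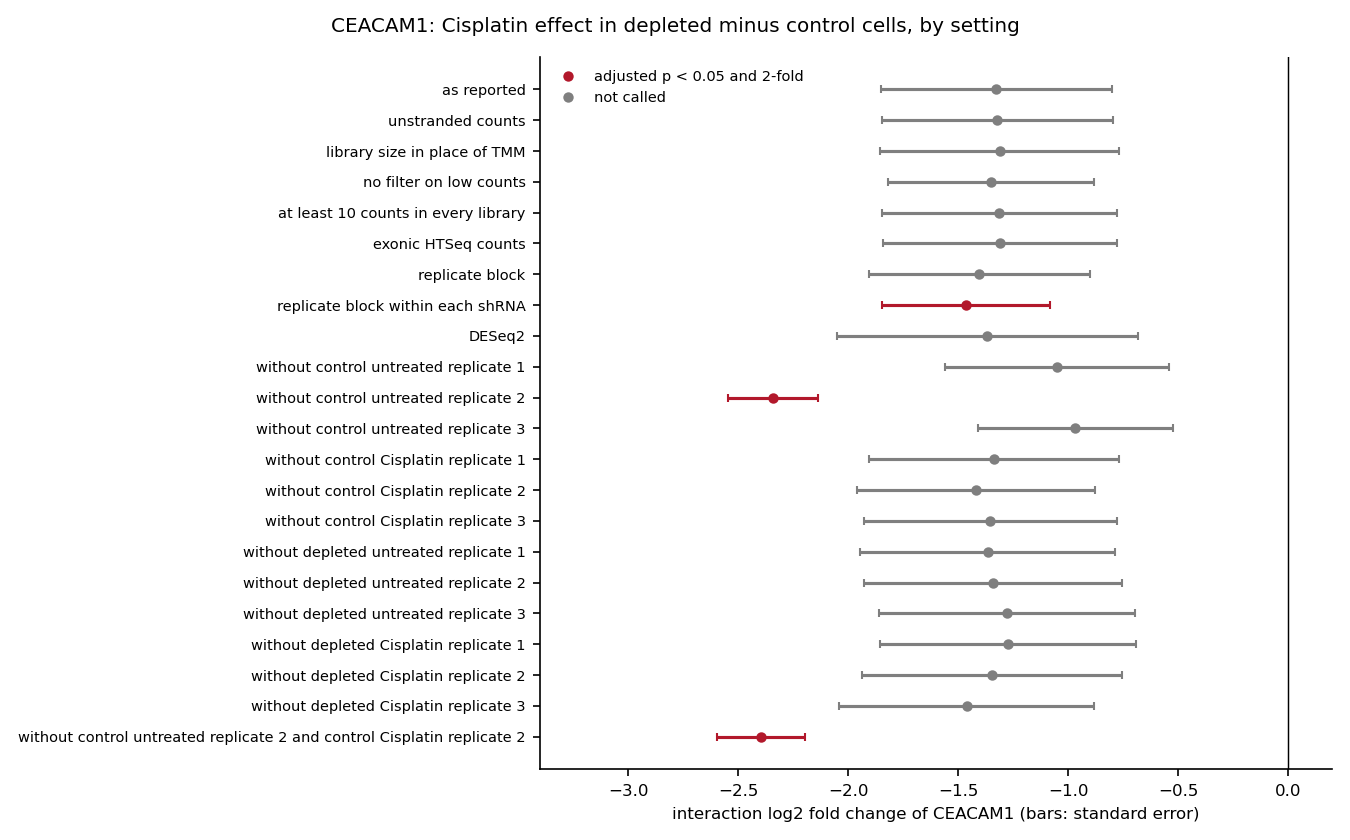
Interaction log2 fold change of CEACAM1 (the Cisplatin effect in depleted cells minus that in control cells) under each setting, with standard errors as bars and called values in red. The values range from −2.40 to −0.97, and both settings without untreated control replicate 2 lie apart, at −2.34 and −2.40.

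CEACAM19 had an interaction of 0.94 (standard error 0.25, adjusted p = 0.0536), under 2-fold. With exonic HTSeq counts it was 1.10 (adjusted p = 0.0324) and called. The remaining interactions were smaller than their standard errors, so differences in either direction are not excluded. The interaction was 0.13 (standard error 0.60) for CEACAM5, −0.07 (standard error 0.20) for CEACAM6 and 0.37 (standard error 1.24) for CEACAM7, with adjusted p of 0.931, 0.877 and 0.904.

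Depletion of RNF113A is described next, with no test. CEACAM5 was higher in every depleted library than in every control library. Its log2 fold change was 4.49 (standard error 0.32) over all libraries, the 5th highest of 15352 genes, with 4.43 in untreated and 4.55 in Cisplatin-treated cells. CEACAM6 was likewise higher without overlap, by 3.12 (standard error 0.11), the 50th highest, with 3.16 in untreated and 3.09 in Cisplatin-treated cells. Untreated, its mean normalised count was 10640 ± 1912 (SD, n = 3) in control and 94477 ± 11022 (SD, n = 3) in depleted cells. With Cisplatin the means were 6296 ± 948 (SD, n = 3) and 51883 ± 4050 (SD, n = 3).

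The ratio of CEACAM6 to CEACAM5 in reads per kb was lower in depleted cells. It was 26.8, 16.4 and 46.4 in untreated control cells and 11.7, 9.79 and 9.27 in untreated depleted cells. With Cisplatin it was 38.2, 29.5 and 72.4 in control cells and 17.8, 14.7 and 11.3 in depleted cells. Control and depleted libraries did not overlap in either case.

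CEACAM1 had a value of 1.61 on the log2 scale (standard error 0.40) in untreated cells, where all depleted libraries were above all control libraries, and 0.28 (standard error 0.34) with Cisplatin, where they overlapped. The difference between these values is the interaction given above, which was not called over all libraries. Without both control replicate 2 libraries the untreated value was 2.62. CEACAM19 was lower in all untreated depleted libraries (−0.62, standard error 0.18) and overlapped between the shRNAs with Cisplatin (0.32, standard error 0.17). CEACAM7 overlapped in both cases, and its value of −1.32 in untreated cells became 0.18 without both control replicate 2 libraries.

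Over all libraries 3 of the 5 genes were at least 2-fold apart upon depletion (CEACAM5 and CEACAM6 higher, CEACAM7 lower), and 2 without both control replicate 2 libraries. At least 2-fold differences were found for 11.5% of all genes. Nothing is read from this count, since the depletion values were known when the genes were listed.

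The rest of the family was hardly detected. The 8 other CEACAM genes in the count files (CEACAM3, CEACAM4, CEACAM8, CEACAM16, CEACAM18, CEACAM20, CEACAM21 and CEACAM22P) had 0 to 5 counts in each library, and none passed the filter on low counts. Of 11 genes of the related pregnancy-specific glycoproteins, 2 passed. PSG4 rose with Cisplatin (log2 fold change 1.20, standard error 0.31, adjusted p = 0.00385), from 30.6 ± 19.3 to 61.8 ± 23.8 (SD, n = 3) normalised counts in control cells. PSG5 had a Cisplatin log2 fold change of 0.44 (adjusted p = 0.330).

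Genes around the members are described beside the 11.5% of all genes that were at least 2-fold apart upon depletion. Within 250 kb of CEACAM5 there were 7 tested genes, of which the 2 that were at least 2-fold apart were CEACAM6 and CEACAM7. Near CEACAM6, 8 genes were tested, and GRIK5, a kainate receptor subunit 226 kb away, was higher by 1.27 on the log2 scale (standard error 0.34). None of the 7 tested genes near CEACAM1 was 2-fold apart, PRR19 and TMEM145 having 0.45 and 0.40. Near CEACAM19, 10 genes were tested and 1 was at least 2-fold apart. This was APOE (221 kb away), an apolipoprotein of lipid transport, with 1.5 (standard error 0.55). Its neighbour APOC1 had −0.59 (standard error 0.07).

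The genes with the most similar profiles were found by the root mean square difference of centred log2 CPM over 12 libraries. For CEACAM6 the nearest was EPCAM, an epithelial adhesion molecule, at 0.361, followed by the basement membrane gene NID2 (0.368) and the matrix metalloproteinase MMP28 (0.378). The median distance over all genes was 1.66. EPCAM was also nearest to CEACAM5 (0.737), before the adhesion molecule CLMP (0.749) and the amino acid transporter SLC6A14 (0.753), and CEACAM6 came at place 5 (0.884, beside a median of 2.49). The normalised counts of EPCAM in control cells were 376 ± 254 (SD, n = 3) without and 187 ± 94.4 (SD, n = 3) with Cisplatin. Those in depleted cells were 3346 ± 226 (SD, n = 3) without and 1629 ± 216 (SD, n = 3) with it.

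CEACAM1 was nearest to the phosphodiesterase gene PDE4C (0.374) and also near YPEL3 (0.603), beside a median of 2.12. PDE4C went from a mean of 15.0 to 353 normalised counts with Cisplatin in control cells and from 49.6 to 461 in depleted cells. CEACAM7 was nearest to SERPINA3, PROS1 and KCNJ2-AS1 (0.40 to 0.461, median 1.15), and CEACAM19 to FBXO48, ZNF460 and DCUN1D3 (0.193 to 0.203, median 0.692). These distances are a description over libraries that share their conditions.

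Genes related to the CEACAM genes by function or by family were followed as 4 lists, described by counts and medians. The counts of each list stand beside 10.3% of all genes called higher and 11.2% called lower with Cisplatin. Upon depletion 11.5% of all genes were at least 2-fold apart. GPI anchor synthesis and transfer builds the anchor of CEACAM5, CEACAM6 and CEACAM7. Of 26 tested genes 1 was called higher and 4 lower with Cisplatin, with a median log2 fold change of −0.12 beside 0.03 over all genes. PGAP1, which removes a lipid from the new anchor, rose by 1.45 on the log2 scale. GPLD1, which cleaves GPI anchors, fell by 1.64, and PIGU and PIGK, subunits of the transamidase that attaches the anchor, fell by 1.52 and 1.22. No gene of the list was 2-fold apart upon depletion.

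Among 9 partners and signalling proteins of CEACAM1, 1 was higher and 1 lower with Cisplatin. The adaptor SHC1 rose by 1.07 on the log2 scale, and the insulin receptor gene INSR fell by 1.59. The median was −0.03, and none was 2-fold apart upon depletion. Of 10 factors described at CEACAM promoters, IRF1, an interferon-responsive activator, rose from 580 ± 135 to 2812 ± 35.6 (SD, n = 3) normalised counts in control cells (log2 fold change over all libraries 2.25, adjusted p = 3.79e-10). CDX2, an intestinal transcription factor, rose from 12.1 ± 5.92 to 35.9 ± 17.7 (SD, n = 3) (1.15, adjusted p = 0.0162). The median of the list was 0.00 on the log2 scale, and none of the 10 was 2-fold apart upon depletion.

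Other adhesion molecules of the immunoglobulin superfamily moved in both directions with Cisplatin, 3 of 16 higher and 3 lower, with a median of −0.16. PVRL4 (nectin-4) rose from 18 ± 6.56 to 1202 ± 151 (SD, n = 3) normalised counts in control cells, and ICAM1, a ligand of leukocyte integrins, from 4.55 ± 2.98 to 112 ± 4.72 (SD, n = 3). ESAM rose by 1.10 on the log2 scale over all libraries, while NCAM1 fell by 3.88, CADM1 by 1.58 and ALCAM by 1.18. Upon depletion NCAM1 was higher (2.84 on the log2 scale), and PVRL3 (−1.02) and ESAM (−1.01) were lower.

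Intronic reads of a gene were taken as reads within its span minus reads within its exons. CEACAM5 and CEACAM6 could not be measured so. A readthrough gene (ENSG00000267881.1, chr19:42212531-42265190) covers CEACAM5 and part of CEACAM6 in the annotation, and CEACAM5 had 0 to 8 reads within its span. CEACAM6 had fewer reads within its span than within its exons. The span of CEACAM19 overlaps that of PVR on the same strand, which bears on its intronic reads.

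The intronic share of CEACAM1 was 9.09%, 3.86% and 9.84% of its reads in untreated control cells and 8.80%, 3.74% and 12.2% in Cisplatin-treated ones, where replicate 2 was the low library in both. In depleted cells it was 11.3%, 7.36% and 6.87% without Cisplatin and 16.4%, 16.0% and 16.2% with it, so all 3 treated libraries were above the others. The intronic to exonic ratio of CEACAM1 rose with Cisplatin in depleted cells (log2 change 1.05, standard error 0.35, adjusted p = 0.0116), a call that was lost without untreated depleted replicate 3 (adjusted p = 0.0595). The median over all genes rose by 0.75 in depleted cells, where 65.4% of genes were called, and by 0.29 in control cells. The ratio of CEACAM1 was not called in control cells (0.37, standard error 0.49, adjusted p = 0.643). Whether its changes differ between control and depleted cells was not tested.

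CEACAM19 had most of its reads in introns. The share was 85.2%, 82.7% and 85.1% in untreated and 80.2%, 78.9% and 78.7% in Cisplatin-treated control cells. It was 90.1%, 87.5% and 90.7% in untreated and 77.2%, 79.0% and 73.6% in Cisplatin-treated depleted cells. The treated libraries were the low ones in each kind of cell. The ratio of CEACAM19 fell with Cisplatin in depleted cells (log2 change −1.37, standard error 0.19, adjusted p = 4.57e-06), where the median over all genes rose by 0.75. In control cells the change was −0.50 (standard error 0.19, adjusted p = 0.0689). Raw exonic reads in depleted cells were 139, 164 and 90 without and 296, 299 and 318 with Cisplatin. Raw intronic reads were 1265, 1150 and 882 without and 1002, 1122 and 885 with it. The lower ratio thus came with more exonic reads, the rise already given for the gene counts, and is not a separate result on introns.

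**Figure D4:**
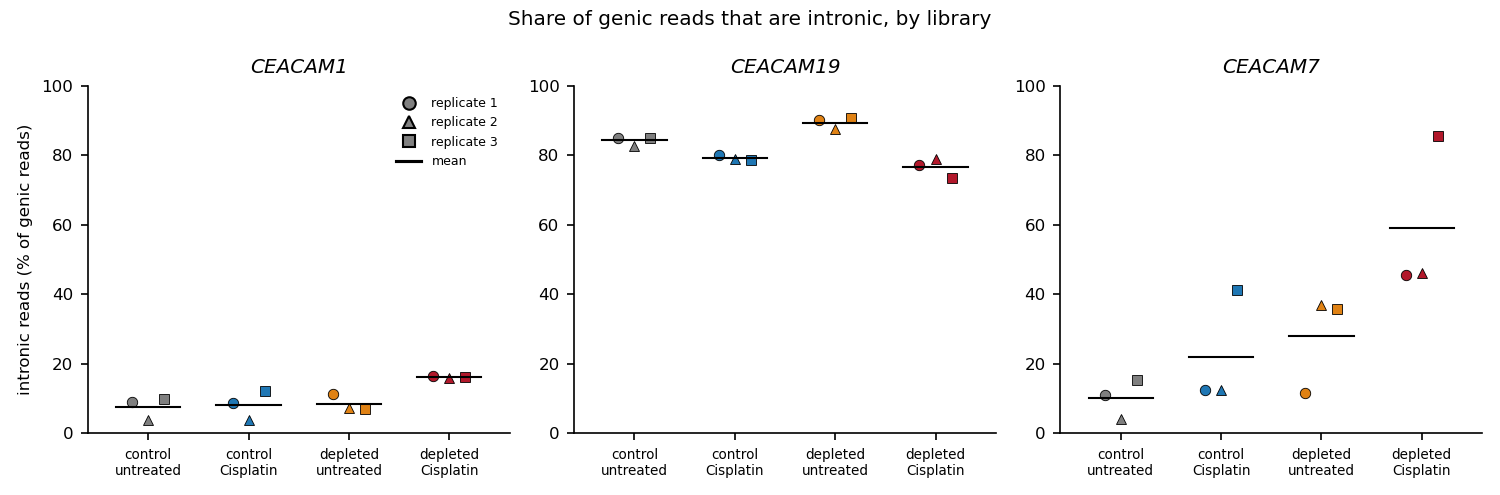
Intronic reads as a percentage of the reads within the span of CEACAM1, CEACAM19 and CEACAM7 in each library, with symbols for replicates and a line at the mean. The 3 Cisplatin-treated depleted libraries of CEACAM1 lie between 16.0% and 16.4%, and those of CEACAM19 between 73.6% and 79.0%.

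CEACAM7 had 1 to 7 intronic and 1 to 91 exonic reads per library. Its ratio was called with Cisplatin in depleted cells (log2 change 1.80, adjusted p = 0.0487), and the call was lost without any one of 6 libraries (untreated control replicate 1, Cisplatin-treated control replicate 1, untreated depleted replicate 1 and each Cisplatin-treated depleted library). In all, 3 of the 3 measurable genes were called with Cisplatin in depleted cells, beside 65.4% of the 11488 genes tested. In control cells edgeR called 0 of 3, beside 18.7%, with 3719 of all genes at an unadjusted p under 0.05, and all 3 were called without Cisplatin-treated control replicate 2 (adjusted p 0.0155 to 0.0393).

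Upon depletion the ratios are again a description. CEACAM1 was 0.52 higher on the log2 scale in untreated and 1.21 higher in Cisplatin-treated cells, CEACAM19 was 0.65 higher and 0.22 lower, and CEACAM7 was 2.25 and 2.03 higher. The median over all genes was 0.47 and 0.96. The call rule was passed by 2 of the 3 genes in untreated cells, beside 28.4% of all genes, and by 2 of 3 in Cisplatin-treated cells, beside 81.7%. Nothing is read from these counts, since the exonic reads of the ratio are those on which the genes were listed.

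Splicing was read from inclusion and skipping reads of 62 distinct events in CEACAM1, CEACAM5, CEACAM6 and CEACAM19. No event of CEACAM7 had enough reads, 60 summed over the 6 libraries of a comparison. The libraries of these tables carry no name and are called a, b and c. An exon of 53 bases in CEACAM1 decides between both cytoplasmic tails, since its inclusion gives the long tail with the inhibitory motifs. It was chosen after its values were seen. The exon is at chr19:43015728-43015780 on the minus strand of hg19. It is shown because it decides the tail, with capitals for the exon and lower case for 20 bases of intron on each side.

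CEACAM1 exon: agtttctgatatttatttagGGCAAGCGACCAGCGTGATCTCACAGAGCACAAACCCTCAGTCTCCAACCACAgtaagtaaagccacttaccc

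The inclusion level of this exon, which scales the reads of each form by its length, was 95.6% ± 7.57 (SD, n = 3) in untreated control cells, from 34 reads in all. It was 85.7% ± 1.93 (SD, n = 3) in Cisplatin-treated control cells, 66.1% ± 9.57 (SD, n = 3) in untreated depleted cells and 82.5% ± 4.76 (SD, n = 3) in Cisplatin-treated depleted cells. The form with the exon was the larger one in every library. Cisplatin moved it by 16.4 percentage points in depleted cells (unadjusted p = 0.0511, adjusted p = 0.599 by edgeR's quasi-likelihood test) and by −9.97 in control cells (adjusted p = 0.835), and neither was called.

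CEACAM5 and CEACAM19 each have a pair of acceptors 3 bases apart, which adds or removes 1 codon. The 30 bases around them are shown on the plus strand of hg19, chr19:42221356-42221385 for CEACAM5 and chr19:45186688-45186717 for CEACAM19, since these events had the largest differences in inclusion of their genes. Capitals mark both AG dinucleotides.

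CEACAM5 acceptors: tctctgttatctgcacAGcAGagccaccca

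CEACAM19 acceptors: ttctctcttccccccaAGcAGgacctgcta

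The inclusion level of the upstream acceptor of CEACAM5 was 83% ± 12.1 (SD, n = 3) in untreated control cells and 72.5% ± 17.7 (SD, n = 3) with Cisplatin. In depleted cells, where its reads were many, it was 83.5% ± 0.921 (SD, n = 3) without and 82.3% ± 0.314 (SD, n = 3) with Cisplatin. CEACAM19 used the upstream acceptor less than the downstream one in each condition. Its inclusion level was 29.4% ± 2.99 (SD, n = 3) and 22.9% ± 9.84 (SD, n = 3) in untreated and Cisplatin-treated control cells. In depleted cells it was 5.37% ± 9.30 (SD, n = 3) without Cisplatin, where 1 of 21 reads was of this form, and 19.9% ± 8.46 (SD, n = 3) with it. Neither gene was called for Cisplatin, with adjusted p of 0.679 or higher.

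**Figure D5:**
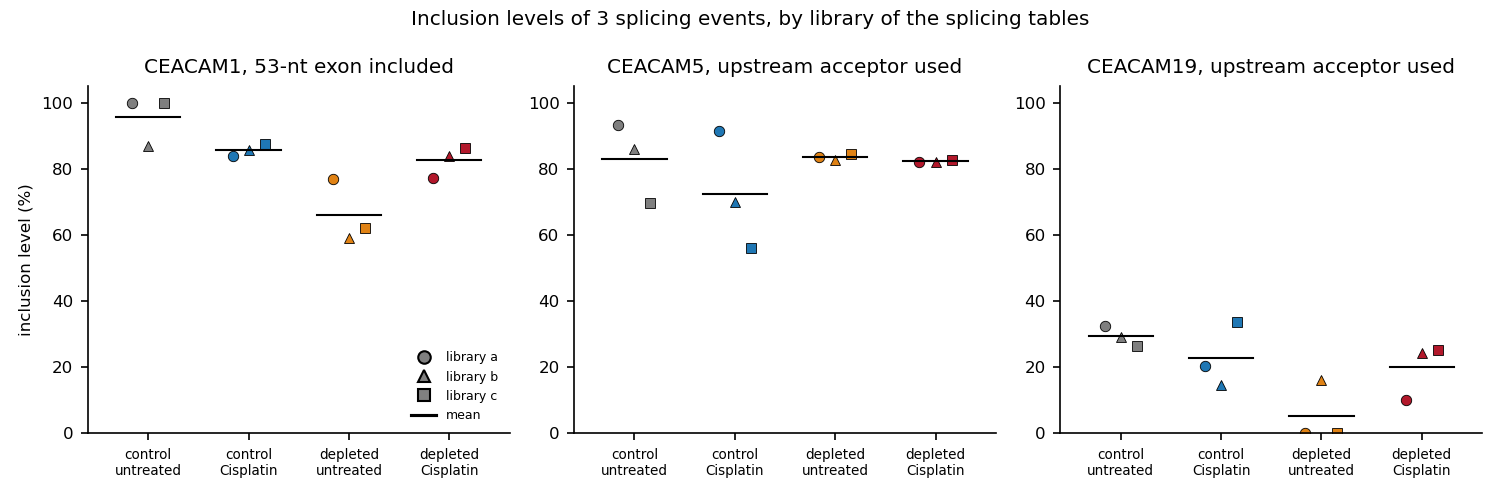
Inclusion levels of the 53-base exon of CEACAM1 and of the upstream acceptor of CEACAM5 and CEACAM19, in percent, for libraries a, b and c of each condition with a line at the mean. The mean of the CEACAM1 exon is 95.6% in untreated control and 66.1% in untreated depleted cells, and CEACAM5 lies near 83% in all depleted libraries.

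The other named events were an exon of CEACAM1 (chr19:43020925-43021017) and a pair of CEACAM6 exons listed as mutually exclusive. The CEACAM1 exon was 51.6 percentage points lower with Cisplatin in control cells, a difference that rests on 4 reads in untreated control cells, with no read in 1 of those libraries. The exon of CEACAM6 (chr19:42265157-42265435) had mean levels of 60.3% to 61.9% in the 4 conditions, set against the other exon of the pair. The condition with the fewest reads of this exon had 4723. Taken as a skipped exon, it had inclusion levels of 99.9% to 100%. The lower level is therefore not the share of transcripts that hold the exon.

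No event of the 4 genes was called for Cisplatin by edgeR's quasi-likelihood test. In control cells 32 of their events were tested, 0 were called and 0 had an unadjusted p under 0.05, beside 0.0643% of all events called. In depleted cells it was 0 of 56, with 0 at an unadjusted p under 0.05, beside 0.276%. Upon depletion, given as a description, 0 of 47 events passed the rule in untreated cells (3 at an unadjusted p under 0.05, 0.0576% of all events) and 0 of 36 in Cisplatin-treated cells (2, and 0.169%). The alternatives run for splicing gave 0 in each comparison too. With rMATS and like limits, the paper reports far more retained introns upon depletion, and more changed exons with Cisplatin in depleted cells. In the test used here, 89 of 3757 retained introns passed the rule upon depletion in Cisplatin-treated cells. Of 64915 skipped exons, 162 were called for Cisplatin in depleted cells. The counts of 0 therefore do not show that splicing of the 4 genes was unchanged.

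The members resemble each other in sequence, and reads that match several places were not counted. Of all 73-base windows in the exons, the length of the trimmed reads, 2.91% of those in CEACAM6 recur in another annotated gene, 2.30% in CEACAM5, 0.896% in CEACAM19, 0.822% in CEACAM1 and 0 in CEACAM7. Such windows were shared with CEACAM3, CEACAM8, PVR and the readthrough gene, and none between the 5 genes themselves. Reads at several places made up 3.51% to 3.83% of each library.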

How the data were processed

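The members and gene lists were chosen with earlier results of these data known. For 12 libraries the authors removed ribosomal, transfer and mitochondrial reads, trimmed reads to 73 nt, aligned them to hg19 with STAR 2.5.2b (version from the submitters' processing notes) and deposited raw counts of read pairs per gene, without normalization. They also deposited exonic and genic counts of HTSeq (Gencode v19, protein-coding genes) and rMATS tables, whose raw inclusion and skipping reads were used. Their p-values, FDR and inclusion levels are the authors' results and were not used, nor was the merged annotation.

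Counts on the strand of the gene were tested with edgeR 4.0.16 (R 4.3.3; TMM, filterByExpr, quasi-likelihood, Benjamini-Hochberg over 15352 genes). The drug effect came from a model of drug and depletion, the interaction and effects within conditions from the model with their product. Splicing events with 60 or more reads and intronic against exonic reads (at least 1 of each per library) were tested likewise with a term per library. Calls needed an adjusted p under 0.05, with 2-fold for genes and 20 percentage points for events. Normalised counts used size factors of DESeq2 1.42.0 (0.763 to 1.31). Depth limits CEACAM7 most. The gene tests for Cisplatin and the interaction, the splicing test for alternative acceptors and the intronic ratio test were run on simulated data. The other steps were not.

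Named genes were all 5 members, tested relatives, up to 3 called genes per direction of each list (those 2-fold apart for depletion), 2 genes within 250 kb per member, the 3 nearest profiles and the event that differed most per member, of which 1 profile and 1 marker are not reported here. Alternatives were unstranded or exonic counts, library size scaling, other filters, DESeq2, other inclusion limits, replicate blocks and leaving out libraries. Deviations of same-numbered libraries correlated between untreated and Cisplatin-treated control cells (r 0.63, 0.73 and 0.48 over 9779 genes), which served as pairs on these correlations alone. The deviations were taken from the mean of each condition, so the outlying control replicate 2 enters all of them. For depleted cells r was 0.41, −0.065 and 0.30.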

Additional observations from a re-analysis of the deposited data

How the results depend on the processing

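Of 196 alternative values of the main counts, 178 kept their call or lay within 1.5 times the count. The replicate block moved no main count by over 1.5 times. Within each shRNA the block gave 1 gene called for the interaction, as did exonic counts (1), the omission of both control replicate 2 libraries (1) and that of 1 library (0 to 1, CEACAM1 without untreated control replicate 2). Genes called for Cisplatin in control cells ranged from 1 to 3 when 1 library was left out. Called intronic ratios ranged from 0 to 2 (depletion, untreated), 1 to 2 (depletion, treated), 0 to 3 (Cisplatin, control) and 2 to 3 (Cisplatin, depleted). With at least 10 reads of each kind, which removes CEACAM7 and CEACAM1, they were 1, 0, 0 and 1. Directions turned, with no call, for the interaction of CEACAM7 under the replicate block (−0.027) and without both replicate 2 libraries (−0.54, CEACAM5 −0.06, CEACAM7 upon depletion in untreated cells 0.18). Leaving out 1 library, the interaction ran from −0.49 to 0.51 for CEACAM5, −0.21 to 0.053 for CEACAM6 and −1.12 to 0.92 for CEACAM7. CEACAM7 upon depletion in untreated cells ran from −1.78 to 0.17, and the intronic ratio of CEACAM1 from −0.19 to 0.75 upon depletion in untreated cells and from −0.34 to 0.88 for Cisplatin in control cells. The cause was not tested. In depleted cells, whose same-numbered libraries did not all correlate, the replicate block within each shRNA called CEACAM7 for Cisplatin (−1.40, adjusted p = 0.0227). No paired analysis was possible for splicing because the library order is not named.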
